A study of Glycine max with 24 samples.

Results

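In leaves of 4 soybean (Glycine max) lines, 250 of 41743 transcripts combined a substantial level under mock treatment with a strong rise after microbe-associated molecular patterns (MAMPs), and they are described here as the abundant induced transcripts. They were chosen from the measured values. Their mean control level over the 4 lines was 10 CPM or more, where CPM is a transcript's share of the library's total scaled to 1000000. Their log2 ratio of MAMP to control mean, with 0.5 CPM added to both, was 1.5 or more in each line. Of the 595 transcripts that met the response criterion, these 250 (42.02%) met the level criterion. They were 1.586% of the 15764 transcripts at 10 CPM or more in control leaves. A transcript just inside the level limit was Glyma11g10230.1, at a mean control level of 10.02 CPM, and one just outside was Glyma16g04550.1, at 9.99 CPM. Just inside the response limit, Glyma02g46600.1 had a lowest line response of 1.504 on the log2 scale, and just outside, Glyma13g04540.1 had one of 1.496.

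Plants recognise conserved microbial molecules with receptors at the cell surface, and flagellin peptides and chitin are among the best studied of these molecules. Recognition is followed within minutes by calcium influx, a burst of reactive oxygen and activation of protein kinase cascades, and then by rapid changes in transcription. Transcripts that are already present in unchallenged leaves and still rise early differ in this respect from those that are switched on from near silence.

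The 24 libraries fell into 8 groups of 3. LD and LDX were crossed to found a set of recombinant inbred lines, of which R-11268 and R-11272 are 1 line each. In all groups, plants were grown with a 16 h photoperiod, their trifoliolate leaves were detached at an age of 3 weeks and infiltrated with water, leaves of 5 plants of a genotype were pooled, and slices floated on water overnight in the dark. The MAMP groups of LD, LDX, R-11268 and R-11272 then received for 30 min 5 ml of a solution with 1 µM flg22, a flagellin peptide, and 50 µg of crab shell chitin. The control groups of the same lines received mock solution (water with DMSO) for the same time. All values thus come from detached, wounded leaf slices, and bulk RNA cannot tell fewer cells of a type from less RNA per cell. The identifiers of the deposited table could not be paired with gene names, so no member is given a function and the tissue label could not be set against marker genes.

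Library totals ran from 9780810 to 20827163 estimated counts, and the lowest value of any member in any library was 24.9 estimated counts. The deposited values have the form of fitted values: in each line the MAMP to control ratio of a member was the same in all 3 replicates once each replicate was scaled by its median ratio (highest SD over members 1.3e-09 on the log2 scale). A replicate error of the MAMP response is thus absent from the table, and SDs below are SDs of fitted values over plant pools. In 3 of the 12 pools, LD replicate 2, LDX replicate 3 and R-11272 replicate 1, both libraries stood apart from the rest. The median correlation of log2 CPM of their control libraries with the other control libraries was 0.641 to 0.799, against 0.88 or more for each of the other 9. Values without these pools, a choice made after the data were seen, are given beside the main results that they touch. Without them 31 members had a mean control level under 10 CPM and 5 others a response under the limit in a line.

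Before treatment the members were moderately expressed transcripts, and after 30 min many were among the most abundant of the leaf. The median mean control level over the members was 25.1 CPM (lowest 10.02, highest 161), and 89 of 250 lay under 20 CPM. The median mean MAMP level was 163 CPM (41.1 to 1147). None of the 100 or 500 highest control means belonged to a member, whereas 5 of the 100 and 69 of the 500 highest MAMP means did. The rule chose transcripts for this rise, so these values describe the set and were not tested.

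**Figure D1:**
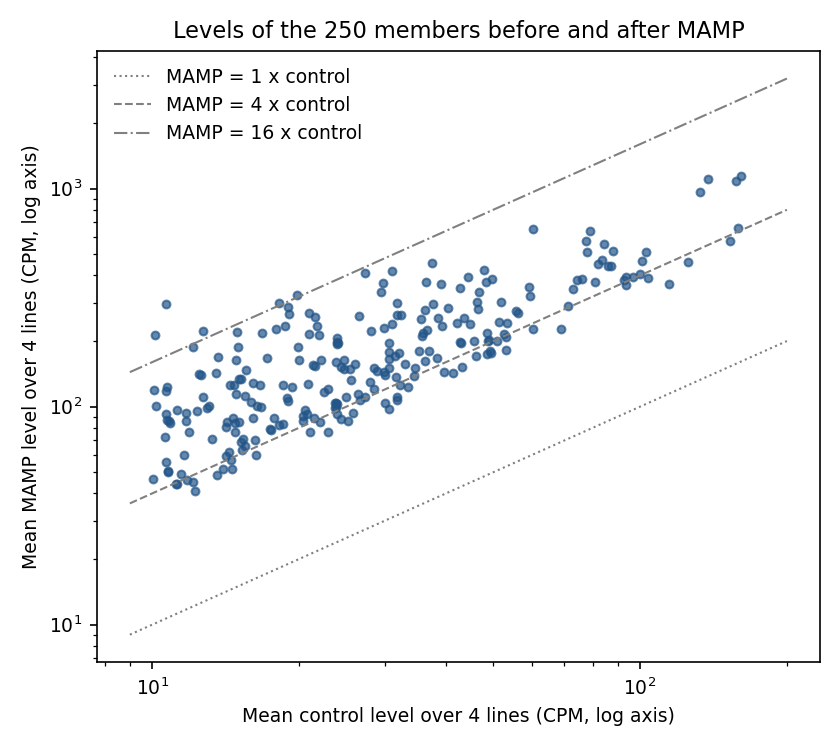
Mean control level (x axis, CPM) and mean MAMP level (y axis, CPM) over the 4 lines for each of the 250 members, both on log axes, with grey lines at MAMP levels of 1, 4 and 16 times control. Control means run from 10.02 to 161 CPM and MAMP means from 41.1 to 1147 CPM, with all members above the line of equal levels.

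Glyma05g36970.1, on chromosome 5 by its identifier, had the highest mean control level, 161 CPM. In control libraries it held 121, 172 and 176 CPM for LD, 155, 176 and 261 CPM for LDX, 153, 196 and 183 CPM for R-11268 and 90.7, 127 and 126 CPM for R-11272, in the order of replicates 1, 2 and 3. In MAMP libraries it held 1159, 1663 and 1662 CPM for LD, 949, 1125 and 1475 CPM for LDX, 886, 1131 and 1053 CPM for R-11268 and 764, 966 and 935 CPM for R-11272. Control and MAMP libraries did not overlap, and LD had the highest MAMP mean (1495 ± 291 CPM, SD, n = 3). Glyma15g00570.1, on chromosome 15, was next at 159 CPM. Its control libraries held 143, 243 and 174 CPM for LD, 89.6, 131 and 351 CPM for LDX, 113, 142 and 125 CPM for R-11268 and 159, 119.9 and 113 CPM for R-11272. Its MAMP libraries held 530.4, 902 and 632 CPM for LD, 431, 655 and 1555 CPM for LDX, 454, 567 and 497 CPM for R-11268 and 723, 493 and 454 CPM for R-11272. Here LDX replicate 3, a pool apart, was the highest library under both treatments.

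Together the 250 members took up a several times larger share of the library after MAMP. In LD the share rose from 0.805 ± 0.121% in control to 5.78 ± 0.962% in MAMP libraries (SD, n = 3). In LDX it went from 1.01 ± 0.332% to 5.90 ± 2.47%, in R-11268 from 0.851 ± 0.0723% to 4.37 ± 0.347%, and in R-11272 from 0.869 ± 0.307% to 5.02 ± 1.99%. The summed level was 7.02, 7.27 and 7.21 times control in LD replicates 1, 2 and 3. It was 5.29, 5.66 and 6.28 times control in LDX, 5.18, 5.13 and 5.12 for R-11268 and 5.98, 5.63 and 5.55 for R-11272. Without the pools apart the mean shares were 0.768% and 5.47% for LD, 0.819% and 4.49% for LDX and 0.692% and 3.87% for R-11272 (2 libraries each, control and MAMP). LD had the largest and R-11268 the smallest ratio in these pools, but these ratios share fitted responses, and no test was run on a sum over chosen members.

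**Figure D2:**
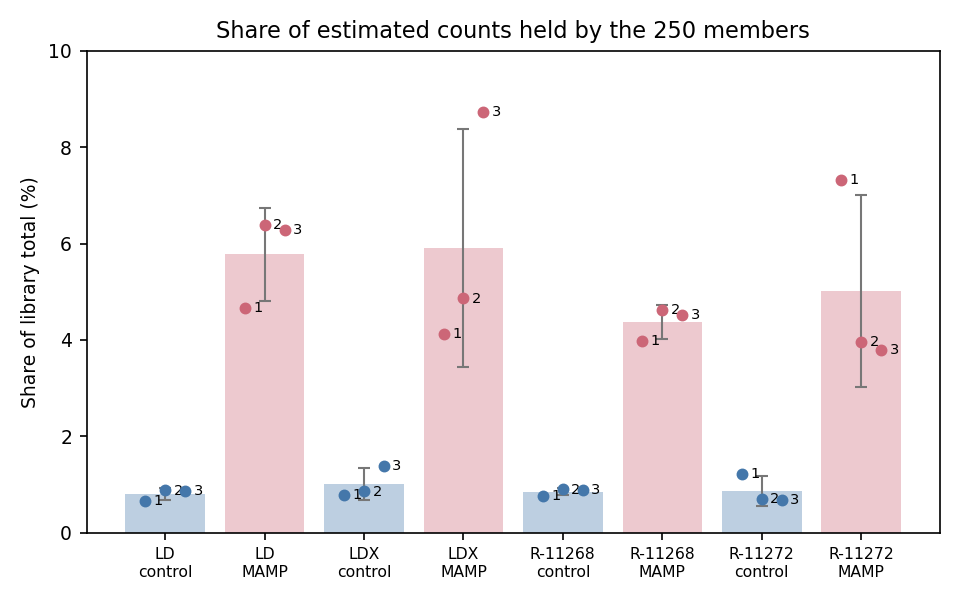
Share of each library's estimated counts held by the 250 members (y axis, %), by line and treatment. Points are libraries with their replicate number, bars group means and error bars the SD of 3 libraries. Control means lie between 0.805 and 1.01% and MAMP means between 4.37 and 5.90%, and LDX replicate 3 and R-11272 replicate 1 are the highest of their groups under both treatments.

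The spread between pools was wide in the lines with a strongly deviating pool. In LD and in R-11268 the 3 MAMP libraries lay above the 3 control libraries for all 250 members. In LDX this held for 219 and in R-11272 for 218 members. Among transcripts at 10 CPM or more it held for 9.26% for LD, 3.67% for LDX, 9.20% for R-11268 and 6.16% for R-11272. The rule used this contrast, so the counts are a description.

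The median log2 response over members was 2.77 for LD, 2.40 for LDX, 2.29 for R-11268 and 2.35 for R-11272. Over all transcripts at 10 CPM or more the medians were between -0.11 and -0.02 in the 4 lines. Averaged over lines, the median member rose by 2.46 on the log2 scale, a 5.51-fold change, and the range over members was 1.66 to 4.72. A mean log2 response of 3 or more was reached by 59 members and one of 4 or more by 6. Of the 250 members, 159 (63.6%) had their highest response in LD, 44 for LDX, 39 for R-11272 and 8 for R-11268, and 88 had their lowest response in R-11268. The lines differed moderately for most members: the range of the log2 response over lines was under 1 for 188 of 250, with a median of 0.73. Without the pools apart the medians were 2.76 for LD, 2.45 for LDX and 2.28 for R-11272. These responses chose the members, and their differences between lines were not tested.

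**Figure D3:**
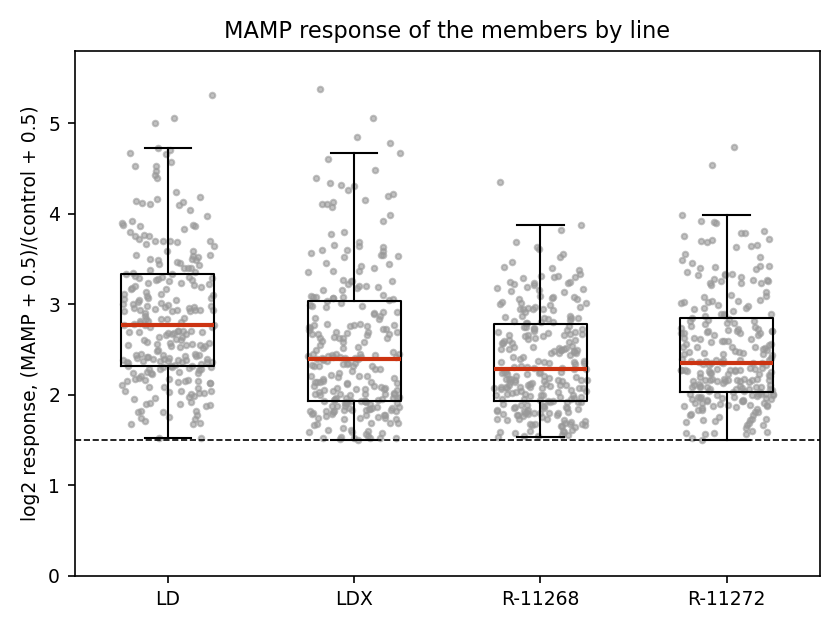
log2 response of each of the 250 members (y axis) in the 4 lines, with boxes at the quartiles, a red line at the median and whiskers to the farthest points within 1.5 box lengths. The dashed line is the limit of 1.5 in the rule. Medians are 2.77 for LD, 2.40 for LDX, 2.29 for R-11268 and 2.35 for R-11272.

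The strongest mean response was that of Glyma02g00290.1 on chromosome 2, at 4.72 on the log2 scale (26.3-fold). Its control libraries held 4.80, 8.52 and 6.35 CPM for LD, 4.08, 6 and 30.2 CPM for LDX, 7.89, 9.68 and 8.21 CPM for R-11268 and 28.2, 7.17 and 7.17 CPM for R-11272. Its MAMP libraries held 166, 295 and 215 CPM for LD, 122, 187 and 833 CPM for LDX, 171, 209 and 177 CPM for R-11268 and 806, 185 and 181 CPM for R-11272. The LDX and R-11272 pools apart held the highest values of all libraries under each treatment, and every other control library lay under 10 CPM. Without the 3 pools apart its mean control level was 6.59 CPM, so it is a member only through libraries in which it was high, and its mean log2 response was 4.68. Glyma04g02280.1 on chromosome 4 followed with a mean log2 response of 4.38, and its line responses were 4.67 for LD, 5.38 for LDX, 3.47 for R-11268 and 3.98 for R-11272. Without the pools apart its mean control level was 8.88 CPM, also under the limit, and its mean log2 response 4.36. With all pools its control means were 8.76 ± 2.40 CPM for LD, 5.89 ± 4.16 CPM for LDX, 13.9 ± 0.628 CPM for R-11268 and 12.02 ± 2.75 CPM for R-11272, and its MAMP means 235 ± 64.7, 266 ± 171, 159 ± 6.59 and 197 ± 59.4 CPM in that order (SD, n = 3).

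Glyma03g33070.1 on chromosome 3 had the widest range between lines, 3.04 on the log2 scale. It responded by 5.31 for LD, 4.85 for LDX, 3.21 for R-11268 and 2.27 for R-11272. With all pools its control means stood in the opposite order. They were 5.12 ± 1.93 CPM for LD, 11.1 ± 12.5 for LDX, 13.1 ± 1.12 for R-11268 and 37.9 ± 29.4 for R-11272 (SD, n = 3). Neighbouring lines in that order overlapped except at its upper end. There the R-11272 libraries (71.8, 22.1 and 19.8 CPM) all lay above those of R-11268 (12.5, 12.4 and 14.4 CPM). The place of LDX above LD rested on LDX replicate 3, a pool apart. That library lay 2.56 on the log2 scale above the mean of the other LDX controls, which was itself below the LD mean. Glyma14g07410.1 on chromosome 14 had the next widest range, 2.46, from 5.05 for LDX to 2.60 for R-11272. Its control libraries held 4.15, 8.59 and 6.21 CPM for LD, 2.40, 2.14 and 29.1 CPM for LDX, 4.77, 5.82 and 7.16 CPM for R-11268 and 119.9, 13.6 and 11.7 CPM for R-11272. The pools apart of LDX and R-11272 were far above the others, and its mean control level was 17.97 CPM with and 6.51 CPM without the 3 pools apart, so it too is a member only through them. Its range between lines was 2.53 without them, and that of Glyma03g33070.1, which stayed over the limit at 10.7 CPM, was 3.14.

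Set beside the other transcripts that met the same response criterion, the abundant members stand for larger gains in level. The sets were split by control level at 1 response limit, so the order of their gains and library shares follows from the split and is a description. The 259 with a mean control level of 1 to under 10 CPM had a median mean log2 response of 2.65 and the 86 under 1 CPM one of 2.68, against 2.46 in the abundant set. The median gain in level was 130 CPM in the abundant set, 24.4 CPM in the intermediate one and 5.36 CPM in the lowest one. In LD MAMP libraries the 3 sets held 5.78 ± 0.962%, 1.11 ± 0.174% and 0.0709 ± 0.011% of the library (SD, n = 3). The added 0.5 CPM lowers the log2 responses of scarce transcripts more than those of abundant ones.

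The mock level of many members varied strongly between pools of the same line. The rule used the mean of these levels, and the transcripts set beside them passed the same level limit. The counts include the 31 members that passed this limit only through the 3 pools apart, so they are partly set by the rule. Counts without those members were not made. In the LDX control library of replicate 3, 111 of 250 members were 2-fold or more above the mean of the other LDX controls (44.4%), against 13.4% of all transcripts at 10 CPM or more. In the R-11272 control library of replicate 1 the count was 73 (29.2%), against 10%. With TMM scaling the counts were 133 and 120, against 18.8% and 18.3% of the abundant transcripts. In the other direction, 27 and 18 members were 2-fold or more below the other controls, against 30.7% and 39.5% of all. With TMM scaling these were 11 and 5, against 19.9% and 17.7%. The median member was 0.74 higher on the log2 scale in the LDX pool and 0.32 higher in the R-11272 pool, where the median abundant transcript was at -0.45 and -0.73. With TMM scaling the median member was at 1.09 and 0.96 and the median abundant transcript at -0.09 and -0.11. No test was made on single pools.

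The same members deviated in both pools. The counts below again include members that passed the level limit only through the pools apart. Of the 111 and 73 members 2-fold higher, 71 were shared (64.0% of the first and 97.3% of the second). That is 28.4% of members, against 9.21% of all abundant transcripts. Among the 259 induced transcripts with a control level of 1 to under 10 CPM it was 66 (25.5%), with 3.86% lower in both pools, so the pattern was also seen in that set. Among the 86 induced transcripts under 1 CPM it was 7 (8.14%), under the share of abundant transcripts, with 0 lower in both pools. The 0.5 CPM added to both levels shrinks such ratios in scarce transcripts. Across the 250 members, the deviations of the LDX and R-11272 pools correlated at 0.930. Across all 15764 abundant transcripts they correlated at 0.924, so the likeness of the 2 pools extended beyond the members. The 71 shared members had a median mean log2 response of 2.71 and a median control level of 20.4 CPM, while 11 members were 2-fold lower in both pools (4.4%), against 27.8% of abundant transcripts. The remaining 168 members had a median response of 2.36 and a median control level of 26.2 CPM. In LD replicate 2, the third pool apart, the median member was 0.15 higher than in the other LD controls, and 0.31 higher with TMM scaling. Without that scaling it was 0.19 higher in LD replicate 3, which is not a pool apart. Deviations of the LD pool correlated with those of the LDX and R-11272 pools at 0.647 and 0.594 across members. Across all abundant transcripts these correlations were 0.780 and 0.643.

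**Figure D4:**
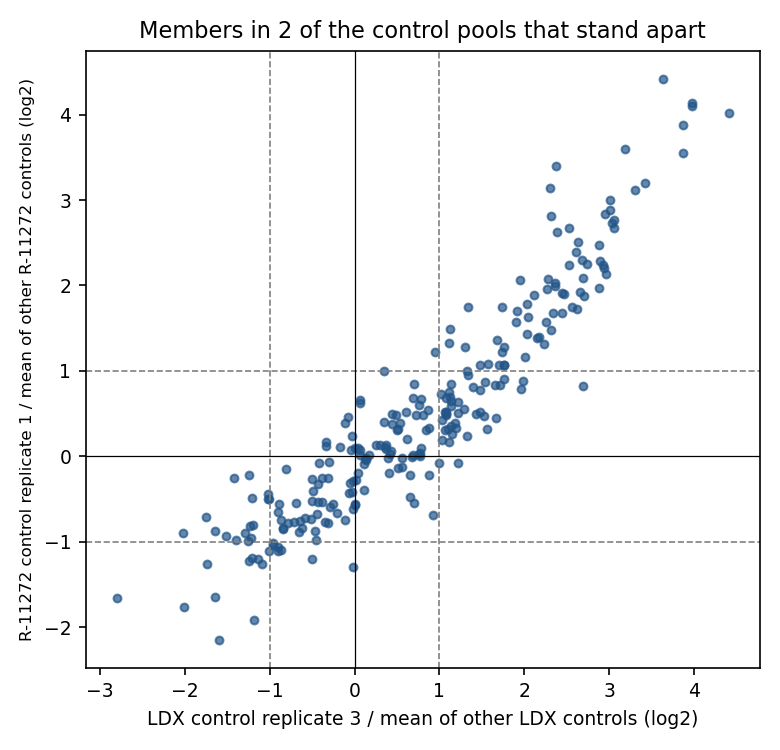
log2 ratio of LDX control replicate 3 to the mean of the other LDX controls (x axis) and of R-11272 control replicate 1 to the mean of the other R-11272 controls (y axis) for each of the 250 members, with dashed lines at 2-fold. The points follow a rising band (r = 0.930), with 71 members 2-fold or more higher in both libraries and 11 lower in both.

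The next question was whether the lines differed in the level of these transcripts within a treatment. The rule did not compare lines, but its level limit was on the mean over lines. A member could therefore pass that limit through a single high line, as could the transcripts at 10 CPM or more set beside the members. The response limit used the control and MAMP mean of each line, so the values tested here also entered the choice of members. The transcripts set beside them had no response limit, so their shares are not a like-for-like background. In control libraries, 10 of 250 members (4%) were called different among the 4 lines by edgeR's quasi-likelihood test, against 1.03% of transcripts at 10 CPM or more and 3.83% of all 32172 tested. Between LD and LDX 9 were called, 4 higher in LD and 5 higher in LDX, against 1.04% of abundant transcripts (0.501% higher in LD, 0.539% higher in LDX). Between R-11268 and R-11272 5 were called, all higher in R-11268, against 0.197% (0.127% higher in R-11268). None was called higher in R-11272 by edgeR, with 22 at an unadjusted p under 0.05 in that direction, while DESeq2 called 2. In MAMP libraries 2 members were called among the 4 lines (0.8%), against 1.79% of abundant transcripts. LD and LDX differed there in 2 members, both higher in LD (against 1.38%), and R-11268 and R-11272 in 1, higher in R-11268 (against 0.203%). In the other direction edgeR called none, with 3 members at an unadjusted p under 0.05 in each of the 2 comparisons, and DESeq2 called 1 between the parents and 0 between the inbred lines. Counts of 1 and 2 are too small to set against these shares.

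The abundant transcripts hold fewer calls than the full set tested, which includes scarce transcripts, so the shares over all transcripts are the stricter background. In control libraries edgeR called 3.12% of all transcripts tested between LD and LDX (1.5% higher in LD and 1.62% higher in LDX), and 1.00% between the inbred lines (0.469% with R-11268 the higher line, and 0.532% with R-11272, which was 0.0698% among abundant transcripts). Set against these, the 4.0% of members called among the 4 lines and the 3.6% called between LD and LDX lay near the shares of all transcripts. The 5 members called between the inbred lines were 2% of members, above that share. Their count fell to 1 when single libraries of these lines were left out, as given below. In MAMP libraries the shares of all transcripts were 5.22% among the 4 lines, 3.51% between LD and LDX (1.88% higher in LD, 1.63% higher in LDX) and 1.08% between the inbred lines (0.424% with R-11268 above R-11272, 0.651% the reverse). Among abundant transcripts in MAMP libraries the directions held 0.691% higher in LD, 0.685% higher in LDX, 0.108% with R-11268 above R-11272 and 0.0952% the reverse.

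Glyma18g52390.1 on chromosome 18 was the member called in all of these comparisons. Its control libraries held 25.1, 32.7 and 37.1 CPM for LD, 19.7, 16.1 and 13.6 CPM for LDX, 36.5, 45.9 and 40.9 CPM for R-11268 and 11.3, 13.9 and 13.2 CPM for R-11272. Its MAMP libraries held 198, 259.8 and 288 CPM for LD, 71.6, 60.7 and 45.4 CPM for LDX, 156, 194 and 173 CPM for R-11268 and 47.1, 52.1 and 48.5 CPM for R-11272. Within each treatment every library of LD and R-11268 lay above every library of LDX and R-11272. In the fitted values the control and MAMP libraries of a pool share its deviation, so calls under control and MAMP are not separate evidence. LD exceeded LDX by 0.95 ± 0.19 (SE) on the log2 scale in control (edgeR adjusted p = 0.0257) and by 2.02 ± 0.21 in MAMP libraries (edgeR adjusted p = 0.000394). R-11268 exceeded R-11272 by 1.43 ± 0.20 in control (edgeR adjusted p = 0.0059) and by 1.66 ± 0.21 in MAMP libraries (edgeR adjusted p = 0.0029). Its MAMP response was 2.96 for LD, 1.82 for LDX, 2.07 for R-11268 and 1.90 for R-11272.

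Among the members higher in LD than in LDX in control libraries, Glyma06g20300.1 on chromosome 6 showed the largest difference, 1.48 ± 0.30 (SE) on the log2 scale (edgeR adjusted p = 0.0259). It held 33.1, 21.2 and 19.3 CPM for LD, 10.7, 6.90 and 8.55 CPM for LDX, 9.39, 14 and 13.7 CPM for R-11268 and 8.91, 8.95 and 7.85 CPM for R-11272. LD was above all other lines without overlap, and the other 3 lines lay close together. Its mean control level of 13.6 CPM rested largely on LD, so the level limit favoured the line called higher. Of 20 alternatives 6 ended this call, among them leaving out LD replicate 1 (adjusted p = 0.125, edgeR) or replicate 2, or LDX replicate 1 or replicate 2.

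Glyma18g03320.1 on chromosome 18 was higher in LD than in LDX by 1.09 ± 0.20 (SE) on the log2 scale (edgeR adjusted p = 0.0158) and higher in R-11268 than in R-11272 by 1.17 ± 0.20 (edgeR adjusted p = 0.0252). Its control libraries held 63.6, 85.9 and 71.8 CPM for LD, 40.2, 41.9 and 23.6 CPM for LDX, 72.1, 89.4 and 89.5 CPM for R-11268 and 21.7, 39.1 and 36.1 CPM for R-11272. LD and R-11268 lay above LDX and R-11272 without overlap, and the lowest values were those of the LDX and R-11272 pools apart. Without the pools apart the parental difference was 0.75 (edgeR adjusted p = 0.0199). The inbred call, like that of the neighbour named below, ended when any single control library of R-11268 or R-11272 was left out. Of 20 alternatives 2 ended the parental call, namely scaling by library totals only (adjusted p = 0.0874, edgeR) and leaving out LD replicate 2 (adjusted p = 0.0554, edgeR). Its neighbour in the table, Glyma18g03310.1, named after its values were seen, showed the same order, with control means of 91.3 ± 12.1, 47.1 ± 11.96, 109 ± 12.2 and 44.7 ± 9.44 CPM for LD, LDX, R-11268 and R-11272 (SD, n = 3), and was called in both comparisons (edgeR adjusted p = 0.0198 and 0.0289).

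In the opposite direction, Glyma11g10230.1 on chromosome 11 was lower in LD than in LDX by 1.06 on the log2 scale in control libraries (-1.06 ± 0.17, SE, edgeR adjusted p = 0.00643). It held 6.33, 5.93 and 8.05 CPM for LD, 13.6, 14.1 and 13.7 CPM for LDX, 7.25, 8.77 and 8.01 CPM for R-11268 and 8.37, 13.4 and 12.6 CPM for R-11272. LD and LDX did not overlap, and R-11272 spanned the gap between them. Its mean control level of 10.02 CPM was just over the limit, and all LD and R-11268 libraries lay under 10 CPM. The level limit thus favoured LDX, the line called higher. Glyma12g02540.1 on chromosome 12 differed by -1.05 ± 0.17 (SE, edgeR adjusted p = 0.00636), with 13.7, 13.0 and 17.1 CPM for LD and 29.9, 29.5 and 29.9 CPM in LDX controls. In MAMP libraries LD minus LDX was -0.56 for Glyma11g10230.1 and -0.41 for Glyma12g02540.1 on the log2 scale, and neither was called (edgeR adjusted p = 0.119 and 0.322). Whether the difference changed with treatment was not tested.

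For the 9 members called between the parents in control libraries, the inbred lines were placed by the nearer parental mean on the log2 scale. In 4 of them, Glyma18g52390.1, Glyma18g03310.1, Glyma18g03320.1 and Glyma11g10230.1, R-11268 was nearer to LD and R-11272 nearer to LDX. In 1, Glyma01g31920.1, the placement was the reverse. Both inbred lines were nearer to LD in 2 and nearer to LDX in 2. The placement was the same without the 3 pools apart in 9 of 9. It is a description and carries no test.

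After MAMP, Glyma07g32010.1 on chromosome 7 differed between the parents, while it was not called in control libraries. Its control means were 17.6 ± 2.75 CPM for LD, 17.0 ± 2.95 for LDX, 15.9 ± 1.4 for R-11268 and 15.1 ± 1.4 for R-11272 (SD, n = 3). Its MAMP libraries held 152, 209 and 172 CPM for LD, 59.1, 64.4 and 74.2 CPM for LDX, 66.5, 78.7 and 73.6 CPM for R-11268 and 83.8, 91.1 and 80.7 CPM for R-11272. The LD libraries lay above those of the other 3 lines, by 1.31 ± 0.27 (SE) on the log2 scale over LDX (edgeR adjusted p = 0.0252). Of 20 alternatives 5 ended the call, among them leaving out LD replicate 2 (adjusted p = 0.0946, edgeR), LDX replicate 1 or LDX replicate 2. Whether its response differed between the lines was not tested.

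**Figure D5:**
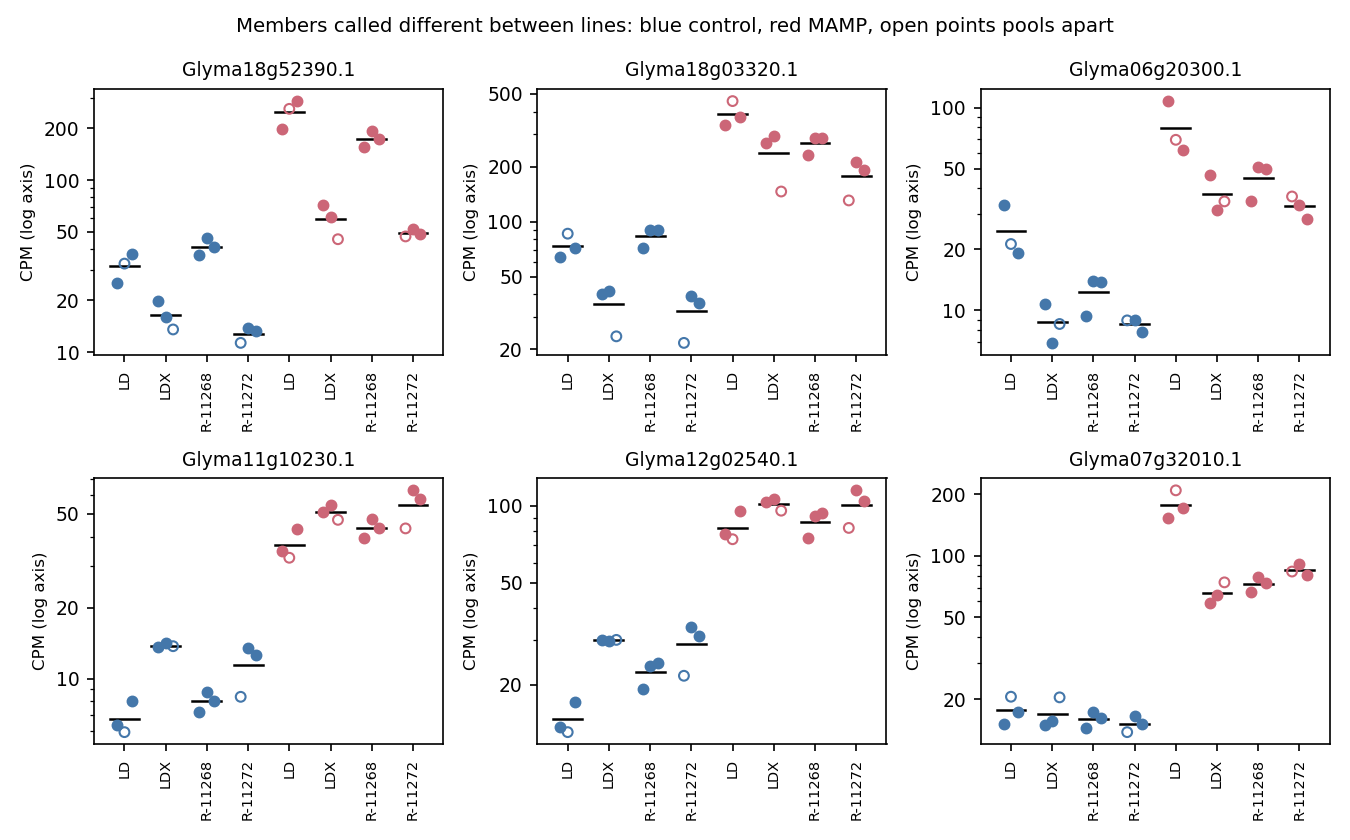
CPM (y axis, log scale) of 6 members called different between lines, in each library of LD, LDX, R-11268 and R-11272, with control in blue and MAMP in red. Horizontal lines are group means of 3 libraries and open points the libraries of the 3 pools apart. For Glyma18g52390.1 LD and R-11268 lie above LDX and R-11272 under both treatments, and for Glyma07g32010.1 LD stands out in MAMP libraries, at 152 to 209 CPM.

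Between the inbred lines in control libraries, Glyma08g01900.1 on chromosome 8 was higher in R-11268 by 1.31 ± 0.23 (SE) on the log2 scale (edgeR adjusted p = 0.0258). It held 39.2, 43.6 and 45.8 CPM for R-11268, 11.5, 15.7 and 17.2 CPM for R-11272, 15.5, 21.2 and 24.6 CPM for LD and 35.3, 39.1 and 18.2 CPM for LDX. After MAMP the inbred lines held 431 ± 32.1 and 354 ± 49.5 CPM (SD, n = 3) and were not called different. The fifth of the 5 calls, beside those of chromosome 18, was Glyma08g02580.1, at 79.8 ± 13.1 CPM for R-11268 and 36.0 ± 11.3 CPM for R-11272 (SD, n = 3, edgeR adjusted p = 0.0398), named because the count was small. Leaving out any 1 of the 6 control libraries of R-11268 and R-11272 brought the 5 calls to 1, that of Glyma18g52390.1. The call of Glyma08g01900.1 ended in 8 of 20 alternatives. The call of Glyma18g52390.1 between the inbred lines held in all 20 alternatives run, in control and in MAMP libraries. So did its parental call in MAMP libraries. Its parental call in control libraries did not hold throughout: without LD replicate 2 no member was called higher in LD.

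The number of line calls depended strongly on the 3 pools apart. Without them, 57 members (22.8%) were called among the 4 lines in control libraries, against 5.13% of abundant transcripts, and 49 (19.6%) in MAMP libraries, against 7.19%. Between LD and LDX, 43 were called in control libraries (against 6.09%), of which LD was the higher line for 30 and LDX for 13. In MAMP libraries 39 were called (against 6.56%), all 39 higher in LD. These shares are for either direction. Shares by direction were not counted without these pools, so the directions of the members have no background here. Counts in this paragraph still include the 31 members under the level limit without these pools. Between R-11268 and R-11272 the counts were 15 (against 0.723%) and 2 (against 0.952%). Over all transcripts tested, the shares called without these pools were 8.48%, 8.27% and 1.79% in control and 11%, 8.63% and 2.29% in MAMP libraries, for the 4 lines, the parents and the inbred lines in turn. The median difference over members turned with the pools in MAMP libraries: LD minus LDX was -0.08 on the log2 scale with all pools and 0.35 without those apart, and R-11268 minus R-11272 was -0.26 and 0.16. In control libraries LD minus LDX was -0.38 and -0.01, and R-11268 minus R-11272 was -0.17 and 0.24.

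The members lay on all 20 numbered chromosomes, as their identifiers give them. Their share of the transcripts at 10 CPM or more ran from 0.741% on chromosome 20 to 2.59% on chromosome 3. Each member was a separate locus. Of the 250, 32 (12.8%) had another member at the next locus of the table, against 1.29% of abundant transcripts with a member at such a place. These made 16 neighbouring pairs, and the mean log2 responses of a pair differed by a median of 0.0575, with 14 of 16 pairs within 0.5. Over all 31125 pairs of members, whose responses the rule had already limited, the median difference was 0.57 and 44.9% lay within 0.5. Chosen after their values were seen, Glyma11g13800 and Glyma11g13810 are an example, with mean log2 responses of 4.01 and 4.04. The widest difference, 1.02, was between Glyma02g46600 and Glyma02g46610. The numbers of the identifiers give the order of loci. How the deposited values treat reads that match several genes is not given, so neighbouring copies of like sequence could share reads, and the likeness of a pair was not separated from that.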

How the data were processed

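RNA was sequenced from 24 libraries (Illumina TruSeq, per the labels' protocols), 3 for each line and treatment. The authors deposited 1 table of estimated counts per transcript, unit and scale taken from its values. Per the submitters' processing notes, Bowtie 0.12.7, TopHat 1.4.1 and Cufflinks 1.1.0 were used. Not given in these sources are the build of the genome, its annotation, the step that made the fitted form and how reads matching several genes were treated. Column letters C and P were read as control and MAMP, C for its initial and P as the other treatment, and column names that begin with LD08 as the inbred lines of the same number.

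The values are fitted: in each line, the MAMP to control ratio divided by its median over transcripts was identical in replicates 1 to 3 (SD under 0.001 on the log2 scale in 100% of transcripts with all 6 values above 0.1). No replicate error of the MAMP effect can therefore be had, and no response was tested. Between pools, the median squared deviation of members was 5.36 to 493 times the counting expectation. The control and MAMP libraries of a pool deviate nearly alike from their group means, so lines were tested within a treatment. Nothing in the labels says that replicates came from separate plantings, and p-values measure only the spread between these pools.

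CPM is the deposited value over the column total. Rounded estimated counts were tested with edgeR 4.0.16 in R 4.3.3 (filterByExpr with a minimum count of 10 and a minimum total of 15, TMM scaling, quasi-likelihood test, Benjamini-Hochberg threshold 0.05) on 12 libraries per treatment, with 8 residual degrees of freedom. The fits held 32172 control and 32278 MAMP transcripts, and all 250 members. Alternatives used DESeq2 1.42.0, other scalings and filters, all 24 libraries, a replicate block and each library left out. Other steps used Python 3.11.15, pandas 2.3.3 and numpy 2.4.6. The scripts were tested on simulated data.

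The members, lists and comparisons were chosen with earlier results of these data known. At most 2 transcripts per direction and aspect were named by size of effect among those called; others are marked. Of 41743 identifiers 0 matched the RefSeq table (Glycine_max_v4.0), so names, gene lists and sequences were not used.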

Additional observations from a re-analysis of the deposited data

How the results depend on the processing

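The number of members was 161 with a control limit of 20 CPM, 428 with a log2 response limit of 1 and 136 with one of 2. It was 233 to 255 with 1 replicate left out, and without the 3 pools apart 214 of the 250 remained among 223. Median log2 responses were 2.79 in LD and 2.30 in R-11268 with 0.1 CPM added, 2.66 and 2.23 with 2 CPM, and 2.85, 2.51 and 2.35 in LD, LDX and R-11268 with TMM scaling. Leaving out replicates gave 2.76 to 2.78 in LD, 2.36 to 2.45 in LDX, 2.28 to 2.29 in R-11268 and 2.28 to 2.38 in R-11272. The summed control level of R-11268 was 7705 CPM with TMM scaling. No median response and no named line difference reversed direction in the alternatives run. Median line differences over all members did change sign without the 3 pools apart, as given above.

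Counts of line calls moved more. In control libraries (4 lines, LD against LDX, R-11268 against R-11272: 10, 9 and 5), DESeq2 called 30, 14 and 17. The fit to all 24 libraries called 18 among the 4 lines and 10 between the inbred lines. A mean of 100 estimated counts left 3 and 1 in the pairwise comparisons. In MAMP libraries (2, 2 and 1), DESeq2 called 29 among the 4 lines and 12 between LD and LDX, all 24 libraries 20 and 13, library totals only 9 and 6, a mean of 100 estimated counts 1 and 1, and no filter 4 among the 4 lines. Without the 3 pools apart the counts were 57, 43 and 15 in control and 49, 39 and 2 in MAMP libraries. The cause was not tested.

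Leaving out 1 library gave 5 to 17, 2 to 10 and 1 to 8 calls in control libraries and 1 to 9, 1 to 5 and 1 to 1 in MAMP libraries. In control libraries, the 4-line count was 17 without LDX replicate 3, 5 without R-11272 replicate 2, and 6 without R-11272 replicate 3 or LD replicate 1. The parental count was 2 without LD replicate 2, and 5 without LD replicate 1, LD replicate 3 or LDX replicate 2. The inbred count was 8 without LDX replicate 3 and 3 without LD replicate 3. In MAMP libraries, the 4-line count was 9 without LDX replicate 3, 8 without R-11272 replicate 1, and 1 without LD replicate 2, R-11268 replicate 1 or R-11268 replicate 3. The parental count was 5 without LDX replicate 3, 4 without R-11272 replicate 1, and 1 without LD replicate 2, LDX replicate 1 or LDX replicate 2.

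With the replicate number as a block, 6, 4 and 3 members were called in control and 1, 1 and 1 in MAMP libraries. Same-numbered control libraries of different lines deviated with correlations of -0.916 to 0.73 (median -0.34), so the numbers were not taken to pair samples.

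The fitted form of the values, 3 pools per line and the lack of gene names limit these results. Detection of the members was fixed by the level limit.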
